A study of Saccharomyces cerevisiae with 3 samples.

Results

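The proteins of the large subunit of the cytosolic ribosome of budding yeast (Saccharomyces cerevisiae) were examined as a group of genes. The group comprises every probe set whose gene symbol is RPL followed by a number, with or without A or B, and the 5 stalk genes RPP0, RPP1A, RPP1B, RPP2A and RPP2B. It held 75 genes among 5449 S. cerevisiae genes with a single name on the array, and where a gene had several probe sets the one with the highest mean over the 3 arrays was used. The RefSeq gene table holds 81 such genes. The others were not analysed here. RNA of stationary-phase cells grown in synthetic medium at 30 °C, with no treatment, was hybridised to single-colour Affymetrix arrays, of which 2 are labelled RPA12 deletion and 1 is labelled wild type. All 3 are described as BY4741, a haploid laboratory strain of mating type a (MATa) that carries his3Δ 1, leu2Δ 0, met15Δ 0 and ura3Δ 0. Rpa12 is one of the smaller subunits of RNA polymerase I, which transcribes the large ribosomal RNAs. The values are the authors' log2 RMA summaries, differences are given in log2 units as the mean of the labelled-deletion arrays minus the wild-type value, and the number of arrays limits the precision.

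The large subunit holds the peptidyl transferase centre, the tunnel through which the nascent chain leaves, and the stalk that recruits elongation factors. After an ancient genome duplication many of its protein genes were kept in yeast as A and B copies that encode the same or nearly the same protein. Most ribosomal protein promoters are bound by Rap1, which recruits Fhl1, and Fhl1 in turn binds the coactivator Ifh1. Growth signalling through TOR and protein kinase A keeps these genes active in rich conditions and lowers them when cells stop dividing.

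The labels did not hold up for RPA12 itself. Its probe set gave 5.74 and 5.79 where the gene is labelled deleted and 3.60 where it is labelled wild type, a difference of 2.16 (limma adjusted p = 0.0090). MET17, also known as MET15 and described as deleted in the labelled strain, read 9.43 and 9.36 on the labelled-deletion arrays and 1.56 on the wild-type array. HIS3, also described as changed there, read 9.27 and 9.30 against 6.73, and LYS2 read 1.42 and 0.97 against 6.08. LEU2 and URA3, described as deleted, were low on all 3 arrays. LEU2 read 1.75 on both labelled-deletion arrays against 1.91, and URA3 read 1.25 on every array. Genes of α type were high on the labelled-deletion arrays, although all 3 arrays are described as mating type a. HMLALPHA1 read 7.08 and 7.05 against 1.13, the pheromone gene MF(ALPHA)1 read 8.94 and 8.80 against 1.75, and the a-factor receptor STE3 read 6.89 and 6.81 against 2.11. HMRA1, the a-type counterpart of HMLALPHA1, read 1.25 and 1.09 against 7.41. STE2, the α-factor receptor of a cells, went the other way, at 6.37 on both labelled-deletion arrays against 5.61 (difference 0.76). The growth protocol of the array labelled wild type also speaks of cells lacking RPA12, while its genotype and description, which were followed, do not. Whether arrays or strains were exchanged was not tested. The position of the RPA12 probes within the gene is unknown here, and probes beyond the deleted stretch would check nothing. Array controls set the groups apart as well, with a median difference of -3.81 over 36 poly-A spike-in probe sets and -1.48 over 27 hybridization controls. Array processing, strain and group cannot be told apart. Every direction below would turn if the labels were exchanged, and is that of the labelled-deletion arrays relative to the array labelled wild type.

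Nearly the whole group read moderately higher on the labelled-deletion arrays. On these arrays the genes ranged from 5.56 to 10.7 with a median of 9.26 (replicate 1) and from 5.51 to 10.7 with a median of 9.22 (replicate 2), and on the wild-type array from 4.73 to 10.1 with a median of 8.47. All 75 lay above the background level on every array. In RNA of whole cultures, fewer cells of one kind and less RNA per cell cannot be told apart. Both labelled-deletion arrays exceeded the wild-type array for 74 of the 75 genes, the exception being RPL4B. The labelled-deletion arrays themselves differed by at most 0.12 for any of these genes, with a median gap of 0.034.

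A gene is said to have risen or fallen where limma gave an adjusted p under 0.05 over all 5498 tested probe sets and the difference was at least 2-fold. By this rule 21 of the 75 genes rose, or 28%, beside 23.8% of all tested probe sets, so the share of rises was close to the background. None fell, beside 10.2% of all tested probe sets. RPL4B was the 1 lower gene with an unadjusted p under 0.05. Without a minimum fold, limma's adjusted p called 66 of the 75 genes higher, beside 50.4% of all tested probe sets, and RPL4B lower. The other 54 genes did not pass, and 41 of the 75 differences lay between 0.5 and 1. The limma adjusted p of the 21 risen genes ran from 1.52e-04 to 0.0291. With only 1 wild-type array, limma takes the spread from the labelled-deletion arrays, and the single array is taken to vary in the same way.

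**Figure D1:**
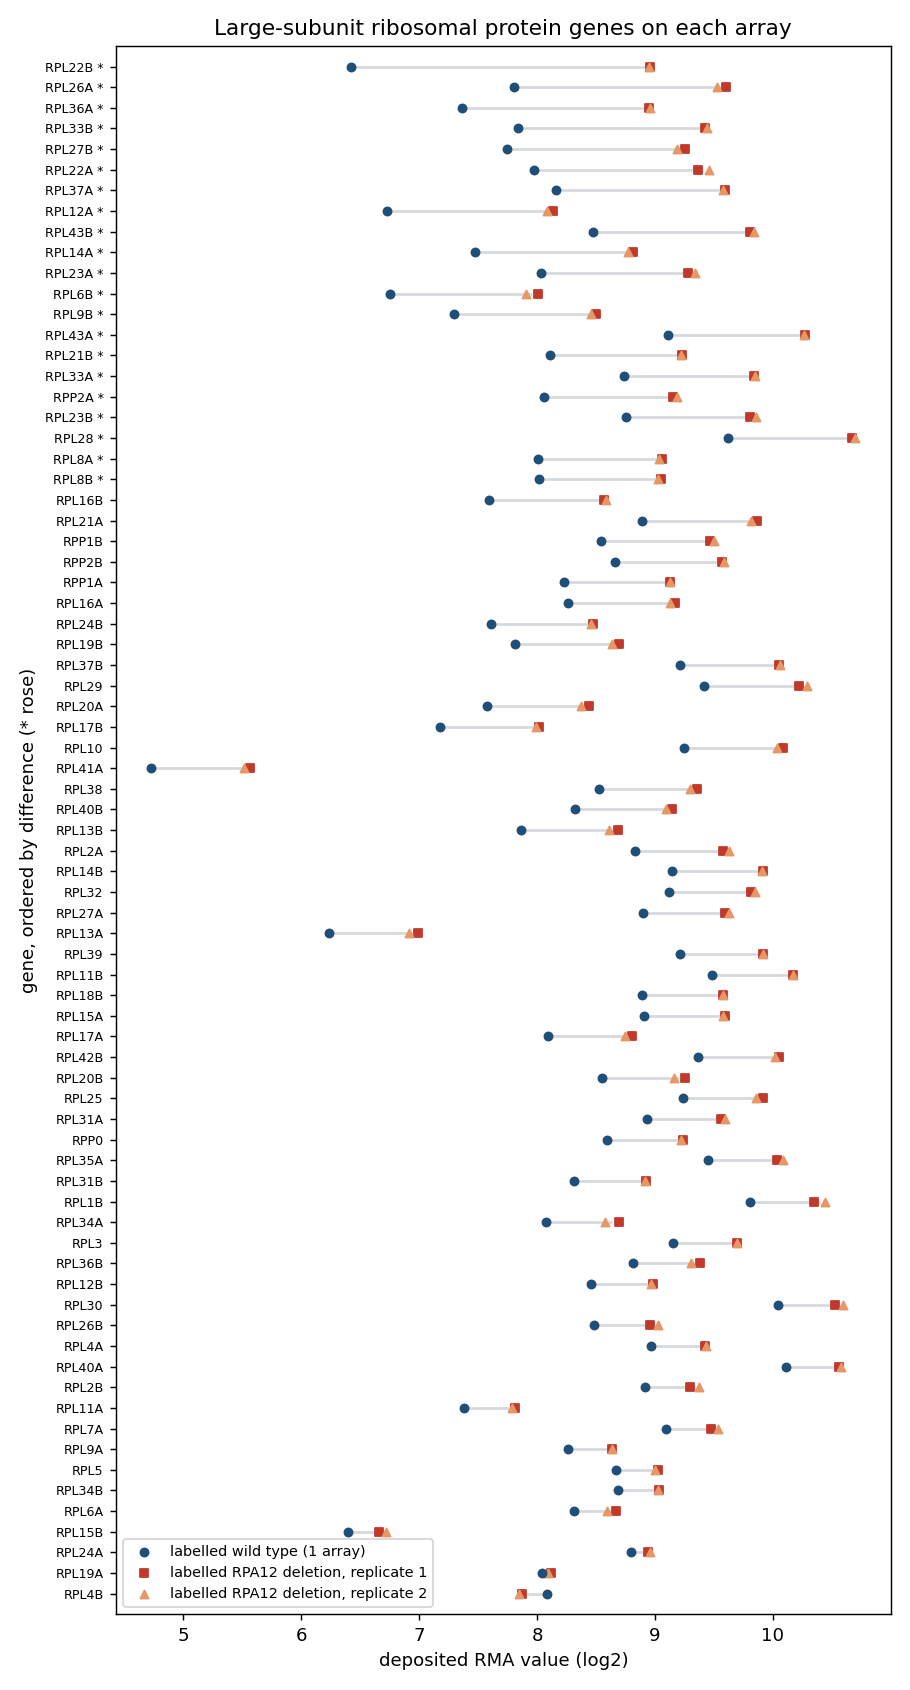
Deposited RMA value (log2, horizontal axis) of each of the 75 genes on the 3 arrays, ordered by difference, with a star beside the 21 that rose. Blue circles mark the array labelled wild type, and red squares and orange triangles the arrays labelled RPA12 deletion. For 74 genes both labelled-deletion arrays lie to the right of the wild-type array, and only RPL4B lies to the left.

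What set the group beside the table as a whole was the position and width of its differences. The median difference was 0.79, or 1.73-fold, against 0.19 over all tested probe sets, and 72 of the 75 genes lay above that overall median. The interquartile range of the group was 0.58 to 1.05, while that of all tested probe sets ran from -0.31 to 0.97. The SD across genes was 0.42 in the group and 1.28 over all tested probe sets. Genes with a positive difference made up 74 of 75 in the group and 64.6% of all tested probe sets. The group was also brighter, with a wild-type median of 8.47 against 5.49 over all tested probe sets. Whether signal level accounts for the narrower spread was not tested. The small-subunit proteins were alike in position, with a median of 0.74 and a positive difference in 51 of 53.

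The size of these differences depends on how the arrays are scaled. Quantile normalization again moved the median of all tested probe sets by -0.15, and median centring moved it by -0.25. The group's median was then 0.70 and 0.54. After quantile normalization 20 genes rose, beside 18.3% of all tested probe sets, and all 20 were among the 21. After median centring 11 rose, beside 18.8%, and all 11 were among the 21. Under median centring RPL19A and RPL24A joined RPL4B below 0.

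**Figure D2:**
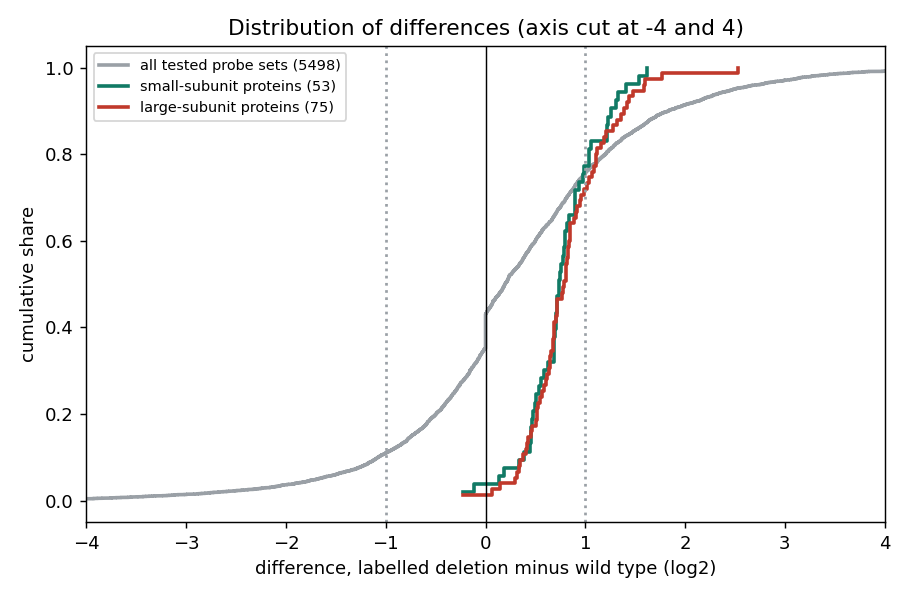
Cumulative share of genes or probe sets (vertical axis) at or below each difference (log2, horizontal axis, shown from -4 to 4). Grey is all 5498 tested probe sets, green the 53 measured small-subunit proteins and red the 75 large-subunit proteins, and dotted lines mark 2-fold. The red and green curves are steep between 0 and 2 with medians of 0.79 and 0.74, while the grey curve spreads to both sides of 0.

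The largest difference was in RPL22B. It read 8.95 on both labelled-deletion arrays and 6.42 on the wild-type array, a 5.78-fold rise (difference 2.53, limma adjusted p = 1.52e-04). Its partner RPL22A read 9.36 and 9.46 against 7.98 and rose 2.70-fold (difference 1.44, limma adjusted p = 0.0231). Rpl22 is a protein of the subunit's surface that is known to bind the intron of RPL22B and hold back its splicing. RPL30 and RPL2, whose proteins are also known to restrain their own transcripts, did not pass. RPL30 read 10.52 and 10.59 against 10.04 (difference 0.52), RPL2A differed by 0.77 and RPL2B by 0.42. RPL32 differed by 0.72 and RPL4A by 0.47.

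RPL26A, RPL36A and RPL33B came next in size. RPL26A, whose protein sits beside the tunnel exit, read 9.60 and 9.53 against 7.80 and rose 3.40-fold. RPL36A read 8.95 and 8.96 against 7.36 and rose 3.02-fold. RPL33B read 9.42 and 9.44 against 7.84 and rose 3.01-fold. In each of these genes both labelled-deletion arrays lay well apart from the wild-type array and close to each other. RPL27B (difference 1.48), RPL37A (1.42), RPL12A (1.39), RPL43B (1.35) and RPL14A (1.32) followed. RPL37A encodes a protein that binds the 5.8S ribosomal RNA and is needed for processing of the spacer beside it.

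The remaining rises were smaller. RPL23A and RPL23B rose by 1.27 and 1.08, RPL43A by 1.15 and RPL33A by 1.11. RPL6B rose by 1.21 and RPL9B by 1.18. RPL8A read 9.06 and 9.03 against 8.01 and RPL8B read 9.05 and 9.02 against 8.01, rises of 1.04 and 1.02 that lie just past 2-fold. Median centring brought both under 2-fold, at 0.79 and 0.77, and quantile normalization again brought RPL8B to 0.99.

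Among the genes of the stalk and its base, 2 of 7 rose, or 28.6% beside 23.8% of all tested probe sets, while none fell, and the median difference was 0.91. RPP0, the anchor protein of the stalk, read 9.24 and 9.22 against 8.59 (difference 0.64). The acidic P proteins that attach to it as pairs differed by similar amounts, with RPP1A at 0.90, RPP1B at 0.94, RPP2A at 1.11 and RPP2B at 0.91, and of these only RPP2A passed 2-fold. RPL12A, whose protein forms the base of the stalk, read 8.13 and 8.09 against 6.72 and rose 2.61-fold. RPL12B, which encodes the same protein, read 8.99 and 8.97 against 8.46 (difference 0.52).

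None of the 3 genes whose proteins join with 5S ribosomal RNA passed. RPL5 read 9.02 and 8.997 against 8.67 (difference 0.34), RPL11A read 7.81 and 7.79 against 7.38 (0.41), and RPL11B read 10.2 on both arrays against 9.48 (0.69). The set specific to RPL11B gave 1.20 and passes the rule. The 2 measured ubiquitin fusion genes, which release ubiquitin and a ribosomal protein from one precursor, did not pass either, with RPL40A at 0.46 and RPL40B at 0.80.

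Of 13 measured genes of the exit tunnel, 1 rose, or 7.69% beside 23.8%, while none fell, and the median was 0.64. RPL26A was the one that rose. RPL25, a docking site for the signal recognition particle, differed by 0.65, and RPL39, a very small protein lining the tunnel, read 9.91 on both labelled-deletion arrays against 9.21 (0.70). RPL19A and RPL4B lay at the bottom of the whole group. RPL19A read 8.12 and 8.09 against 8.04, a difference of 0.07. RPL4B read 7.87 and 7.85 against 8.08, a difference of -0.22, and was the 1 gene of the 75 that read lower.

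Of 9 measured genes around the tRNA sites and the catalytic core, 1 rose, or 11.1% beside 23.8%, while none fell, and the median was 0.81. RPL21B rose by 1.12. RPL21A differed by 0.95 on the shared set that was used, while its own set gave 1.35 and passes the rule. RPL3, which reaches into the peptidyl transferase centre, read 9.70 on both arrays against 9.15 (difference 0.54). RPL10, which joins late and completes the subunit's tRNA sites, read 10.08 and 10.03 against 9.25 (0.81). None of 3 bridge genes passed. RPL24B differed by 0.85, RPL41A by 0.81 and RPL24A by 0.15.

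The 11 single-copy genes had a median difference of 0.70 and ran from 0.34 to 1.07. RPL28, whose alleles are known for cycloheximide resistance, was the only one that rose, from 9.62 to 10.7 on both arrays. That is 9.09% of the 11, beside 23.8% of all tested probe sets. RPL29 at 0.84 and RPL10 at 0.81 came next, and RPL5 at 0.34, RPL30 at 0.52 and RPL3 at 0.54 were the lowest. The 54 genes measured as both copies of a pair had a median of 0.81 and ran from -0.22 to 2.53. Of these, 19 rose, or 35.2% beside 23.8% of all tested probe sets. The SD across genes was 0.19 for single-copy genes and 0.48 for paired copies, and 0.37 for the mean of the copies of each pair. No test was made of these spreads.

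**Figure D3:**
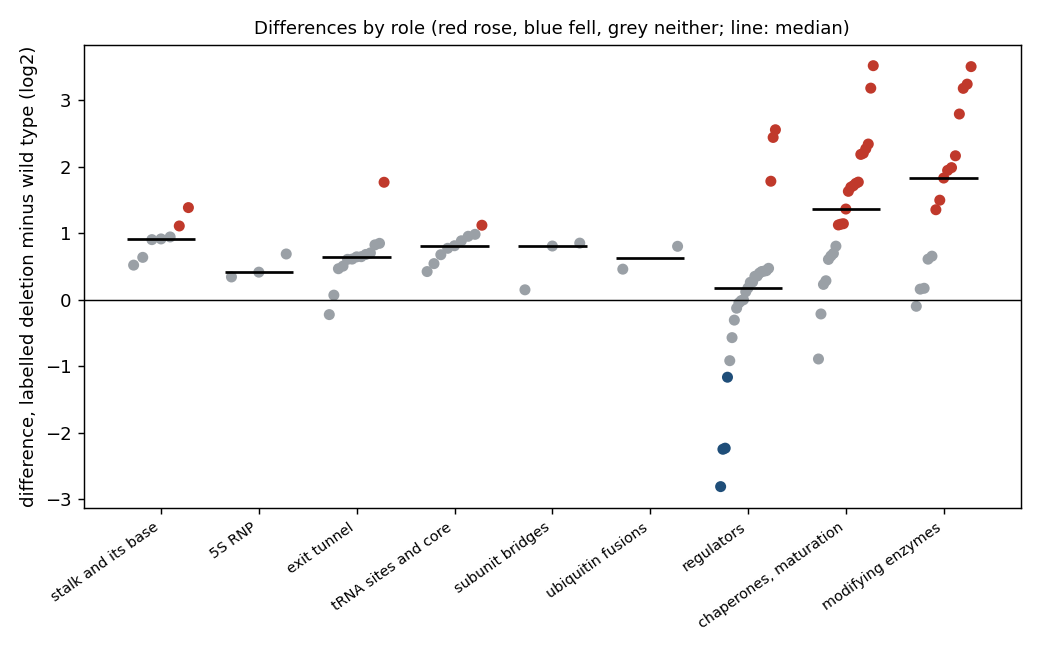
Difference (log2, vertical axis) of each measured gene by role, with the ribosomal protein groups on the left and regulators, chaperones and maturation factors, and modifying enzymes on the right. Each point is a gene, red where it rose and blue where it fell, and the line is the median. The ribosomal protein groups have medians between 0.41 and 0.91, against 1.36 for chaperones and maturation factors and 1.83 for modifying enzymes. After quantile normalization again these medians lay between 0.40 and 0.85, against 1.01 and 1.13.

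The change of the A copy was then set against the change of the B copy in the 27 pairs with a probe set for each. Levels of different probe sets cannot be compared, so only their differences from the wild-type array were. This quantity, the A change minus the B change, does not move when an array is shifted as a whole. A pair was said to diverge where the changes were at least 2-fold apart on both labelled-deletion arrays. No test of these values was made, and an exact permutation test over 3 arrays could not give a p below 0.333.

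In 3 of 27 pairs the copies diverged, beside 6.25% of the 48 pairs of either subunit, where none of the 21 small-subunit pairs did. RPL26 had the widest gap, at 1.26 ± 0.099 (SD, n = 2), with RPL26A at 1.77 and RPL26B at 0.51. RPL26B read 8.96 and 9.02 against 8.49. In the RPL36 pair the gap was 1.07 ± 0.064 (SD, n = 2), with RPL36B reading 9.38 and 9.30 against 8.81 (difference 0.53). In the RPL22 pair it ran the other way, at -1.10 ± 0.073 (SD, n = 2), since RPL22B exceeded RPL22A while both rose. After quantile normalization again only 2 of the 27 pairs diverged. The gaps were then 1.30 in RPL26, 1.12 in RPL36 and -1.02 in RPL22.

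Another 7 pairs were at least 1.5-fold apart on both arrays. The A copy changed more in RPL12 (gap 0.86) and RPL4 (0.69). The B copy changed more in RPL6 (-0.89), RPL9 (-0.81), RPL19 (-0.78), RPL27 (-0.76) and RPL24 (-0.70). RPL6A, for example, read 8.67 and 8.59 against 8.31, while RPL6B read 8.01 and 7.90 against 6.75. RPL24A read 8.94 and 8.96 against 8.80, while RPL24B read 8.47 and 8.45 against 7.61.

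At the other end, 10 pairs had a gap under 0.25. RPL8 had the narrowest, at 0.016 ± 0.0043 (SD, n = 2). RPL31 (0.037), RPL13 (-0.073) and RPL16 (-0.097) were also close. RPL15B, among the lowest of the group at 0.30, stood beside RPL15A at 0.68. The larger change was in the A copy in 13 pairs and in the B copy in 14. Both copies rose in 5 pairs (RPL8, RPL22, RPL23, RPL33 and RPL43), only the A copy passed in 5, only the B copy in 4, and neither in 13. These counts depend on the choice of probe set, as given below. In 24 of 27 pairs the gap exceeded 3 times its SD over the labelled-deletion arrays, which leaves out any variation of the wild-type array.

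**Figure D4:**
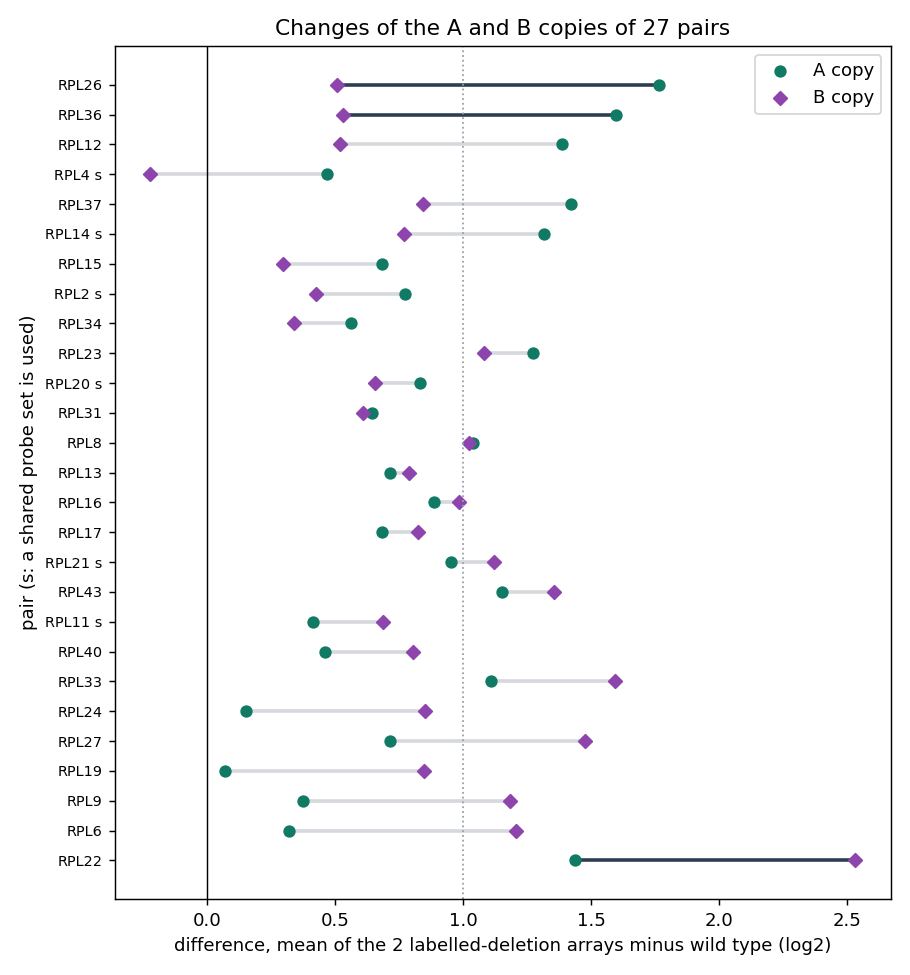
Difference from the wild-type array (log2, horizontal axis) of the A copy (green circle) and the B copy (purple diamond) of 27 pairs, ordered by the A change minus the B change. Dark lines mark the 3 pairs whose copies are at least 2-fold apart on both arrays, the dotted line marks 2-fold, and s marks pairs in which a shared probe set is used. RPL26 and RPL36 at the top have the larger change in the A copy, and RPL22 at the bottom in the B copy.

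Because the copies are nearly identical, the probe sets do not all tell them apart. For 12 of the 75 genes the probe set used has an identifier ending in _s_at, which the array's maker gives to sets whose probes match more than one transcript. None of these 12 rose, with differences between 0.41 and 0.95. Of the 63 genes on other sets 21 rose, or 33.3%, beside 23.8% of all tested probe sets. Whether a set without that ending takes up signal of the other copy was not tested, and RPL8A and RPL8B read nearly the same on all 3 arrays.

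In 7 genes both kinds of set exist, and the shared one was the brighter and thus the one used in 6. RPL14B read 9.91 on both labelled-deletion arrays against 9.14 on the shared set (difference 0.77), and 8.03 and 8.01 against 6.40 on its own set (1.62). RPL11B gave 0.69 on the shared set and 1.20 on its own, RPL20B 0.65 and 1.12, and RPL21A 0.95 and 1.35. In these 4 genes the copy's own set passes the rule for a rise and the shared set does not. RPL18B went the other way, at 0.68 on the shared set and 0.07 on its own, which read 4.61 on both arrays against 4.53. RPL2A gave 0.77 and 0.55, and RPL8A 1.06 and 1.04.

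Preferring a copy's own set was a choice made after the data were seen. With it 25 of the 75 genes rose, beside 23.8% of all tested probe sets. The same 3 pairs diverged among the 26 pairs that have such sets for both copies. The sign of the A change minus the B change turned in 3 pairs, from 0.55 to -0.31 in RPL14, from 0.18 to -0.29 in RPL20 and from -0.17 to 0.23 in RPL21. In RPL11 the B copy's lead widened from -0.27 to -0.79. The larger change was then in the A copy in 11 of the 26 pairs and in the B copy in 15. Both copies of RPL14 and of RPL21 then passed the rule for a rise, and the B copy alone in RPL11 and RPL20. RPL4A has a shared set only, so the gap of the RPL4 pair compares a shared set with RPL4B.

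**Figure D5:**
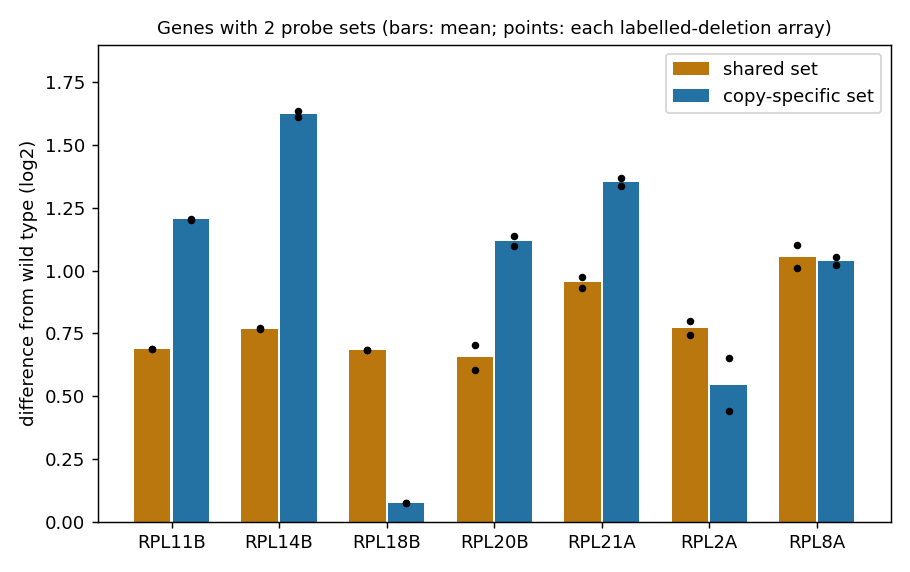
Difference from the wild-type array (log2, vertical axis) for the 7 genes with both a shared probe set (brown) and one of the copy's own (blue). Bars are means and points the 2 labelled-deletion arrays. The copy's own set gives the larger difference in RPL11B, RPL14B, RPL20B and RPL21A, the smaller in RPL18B and RPL2A, and nearly the same in RPL8A.

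Beside the large subunit, 12 of 53 measured small-subunit proteins rose, or 22.6% beside 23.8% of all tested probe sets, while none fell, and the median was 0.74. The 2 small-subunit genes with a negative difference, ASC1 at -0.22 and RPS22B at -0.11, were called lower by limma's adjusted p without a minimum fold. The largest differences were in RPS14B at 1.62, RPS24B at 1.53, RPS8B at 1.41 and RPS27A at 1.33.

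Regulators of ribosomal protein genes moved in both directions. Of 25, 3 rose (12% beside 23.8% of all tested probe sets) and 4 fell (16% beside 10.2%). Their median of 0.18 became -0.13 after quantile normalization again and -0.07 after median centring. IFH1, the coactivator, read 5.47 and 5.45 against 2.90 and rose 5.88-fold (limma adjusted p = 0.0022). CRF1, a corepressor that competes with Ifh1 for Fhl1, read 3.37 and 3.21 against 6.10 and fell 7.01-fold (limma adjusted p = 0.0189). The differences of RAP1, FHL1 and SFP1, a TOR-dependent activator, depend on scaling. They were 0.27, 0.00 and -0.05 as deposited, and -0.29, -0.76 and -0.23 after quantile normalization again. SCH9, a kinase downstream of TOR, read 4.27 and 4.03 against 6.40 and fell 4.75-fold. STB3, a repressor that Sch9 inhibits, fell 4.70-fold, and TOR2 fell 2.24-fold. TOD6, a repressor of ribosome biogenesis genes, rose 5.43-fold, and REB1 rose 3.44-fold. REB1 read 3.96 on both labelled-deletion arrays against 2.18, near the wild-type background level of 1.84. The differences of TOD6 and REB1 were 2.44 and 1.78 as deposited, and 1.84 and 1.45 after quantile normalization again.

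Factors that chaperone large-subunit proteins or act late in the subunit's maturation included many rises. Of 23 measured, 15 rose while none fell, and the median was 1.36, beside the same 23.8% and 10.2% of all tested probe sets. After quantile normalization again 12 rose, beside 18.3% of all tested probe sets, 1 fell, and the median was 1.01. SDO1, which helps release Tif6 from the new subunit, read 6.83 on both arrays against 3.32 and rose 11.5-fold. RLI1, an ATPase of ribosome recycling, rose 9.07-fold, RSA4 5.06-fold and ARX1, an export factor, 4.82-fold. The 2 genes with a negative difference, BCP1 at -0.89 and KAP123 at -0.21, were called lower by limma's adjusted p without a minimum fold.

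The dedicated chaperones can be set beside their clients, a choice made after their values were seen. SQT1, the chaperone of Rpl10, differed by 1.75 and RPL10 by 0.81. RRB1, the chaperone of Rpl3, differed by 1.12 and RPL3 by 0.54. SYO1, which carries Rpl5 and Rpl11 together, differed by 1.71, against 0.34 for RPL5 and 0.41 and 0.69 for the RPL11 copies. ACL4, the chaperone of Rpl4, differed by 0.23, against 0.47 for RPL4A and -0.22 for RPL4B. BCP1, the chaperone of Rpl23, differed by -0.89 while RPL23A and RPL23B rose. The size of these differences depends on scaling. After quantile normalization again SQT1 differed by 1.58 and RPL10 by 0.76, and RRB1 by 1.01 and RPL3 by 0.47. SYO1 then differed by 1.13, against 0.25 for RPL5 and 0.40 and 0.66 for the RPL11 copies. ACL4 then differed by 0.10 and BCP1 by -1.06.

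Of 15 measured modifying enzymes, 10 rose, or 66.7% beside 23.8% of all tested probe sets, and none fell, beside 10.2%. Their median of 1.83 became 1.13 after quantile normalization again. HPM1, which methylates a histidine of Rpl3, read 6.08 and 6.03 against 2.55 and rose 11.3-fold. NAT3 and ARD1, catalytic subunits of N-terminal acetyltransferases, rose 9.46-fold and 6.92-fold, and RKM4, a lysine methyltransferase of Rpl42, rose 9.05-fold. RKM5 had the only negative difference, at -0.10, and was not called lower by limma (unadjusted or adjusted). The list is broader than its name, since EFM5 acts on an elongation factor, TPA1 on a small-subunit protein, and OPI10 was listed without such a known role.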

How the data were processed

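Total RNA (6 µg per array) was labelled with biotin, per the labels' protocols. The authors deposited log2 probe-set values, for which the submitters' processing notes name RMA and Affymetrix Expression Console. Their versions, and whether all arrays went through RMA together, are not given in the sources. RMA includes a quantile step that can hide a shift of most transcripts, but the deposited arrays do not share one distribution, since normalizing them again moved values. Values were used as deposited. The platform annotation gives 1 gene symbol for 7244 of the 10928 probe sets, and 5498 of these matched S. cerevisiae genes in the RefSeq table of assembly R64, used only for names (12 symbols updated). The other 1746 belong to another yeast, and their 95th percentile was the background level (1.42 on each labelled-deletion array, 1.84 on the wild-type array).

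limma 3.58.1 in R 4.3.3 (lmFit, eBayes, two-sided, Benjamini-Hochberg) was fitted to all 5498 probe sets. It was also run on simulated data that had no ties and the same spread on all 3 arrays. That run cannot show how the fit behaves with ties or with another spread of the wild-type array. The labelled-deletion arrays were tied to every digit for 2431 of the 5498 probe sets (44.2%). Such ties make limma's p alone unreliable, so a 2-fold minimum was added. The labels do not say whether separate cultures were used, so the p-values reflect the spread between these arrays and this may be technical. The members and gene lists were chosen with earlier results of these data known. Named are the genes that rose or fell, both copies of diverging pairs, role lists of up to 7 genes, the 5 highest and 5 lowest differences, the 3 highest and 3 lowest single-copy genes, and up to 4 of the largest called differences in each other list; genes outside this rule serve as examples chosen after their values were seen. Sequence features of promoters and proteins were not analysed here.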

Additional observations from a re-analysis of the deposited data

How the results depend on the processing

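Median centring lowered the number of large-subunit genes that rose from 21 to 11 and of small-subunit genes from 12 to 6, and the cause was not tested beyond the shift of all probe sets. It also turned RPL19A to -0.18 and RPL24A to -0.10. The median difference of the 75 genes was 0.70 after quantile normalization again, 0.54 after median centring, and 0.81 both with the mean of all probe sets of a gene and with a copy's own set preferred. Without a minimum fold, limma's adjusted p called 50.4% of all tested probe sets higher, and the share called lower is not given here. That rule called 66 of 75 large-subunit genes higher and 1 lower, and 49 of 53 small-subunit genes higher and 2 lower. It called 13 of 25 regulators higher and 9 lower, and 2 of 23 chaperones or maturation factors lower. Among the latter, 1 (BCP1) fell at least 2-fold after quantile normalization again and after median centring. Testing against a minimum fold of 1.5 called 21 small-subunit genes higher, since the threshold is lower. At 1.5-fold, 10 pairs diverged instead of 3, and after quantile normalization again 2 did at 2-fold. The background filter, the background floor, eBayes with trend and robust, and the 2-fold rule on both arrays with no test each kept the call of all 75 genes. The filter and the floor could not alter the values of these genes, since all 75 lay above background on every array. Every gene of the 75 that was at least 2-fold higher also passed limma, so the 2-fold minimum alone set the 21 rises. Testing against 1.5-fold added 12 of the 75 genes and lost 2 (RPL6B and RPL22A). Leaving out either labelled-deletion array, as a value with no test, kept all 75 genes on the same side of 2-fold. A prior variance from untied probe sets, added after seeing the data, left the same 21 genes. With it the limma adjusted p of RPL22B moved from 1.52e-04 to 2.94e-157, so the size of these p-values depends on the prior. The motif alternative was not run because no promoter sequences were used here. No paired analysis was possible because the wild-type group has a single array with no replicate number. With 1 wild-type array, its own variation is unknown and limits every difference.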

Other observations

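The array also carries probe sets for the other yeast's ribosomal proteins, and 7 of them bear RPL or RPP0 names. Of these, 6 lay at or below the background level on every array. The set for rpl13 read 2.26 on both labelled-deletion arrays and 3.02 on the wild-type array, above background on all 3, and its difference runs opposite to the S. cerevisiae group. Across the 75 genes the difference and the wild-type value had a Pearson correlation of -0.34 and a Spearman correlation of -0.38, while the difference and the mean of the labelled-deletion arrays had a Pearson correlation of 0.12. The first pair shares the wild-type array, and the genes are not independent replicates, so these values are a description.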
